A study of Mus musculus with 12 samples.

Results

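The inhibitory receptors of myeloid cells and the adaptor DAP12 were examined in mouse bone marrow-derived dendritic cells (BMDCs) by RNA-seq. The 10 genes were taken by name from the gene column of the count tables, and all 10 of them were found once among 41709 genes. They were Pirb, Lilrb4a, Siglece, Siglecg, Siglec1, Cd300a, Cd300lf, Lair1, Cd200r1 and Tyrobp, the last of which encodes DAP12. BMDCs of CD18fl/fl mice, which carry Itgb2 (CD18) with loxP sites around an exon and no Cre, served as controls. BMDCs of CD18CD11c cKO mice carry the same floxed alleles together with a Cre recombinase under control of the CD11c promoter, so that the deletion is limited to cells in which this promoter is active. Controls and knockouts alike thus had both Itgb2 alleles floxed, on a B6 background. The age of the mice is not given in the sources used here. Bone marrow was grown with GM-CSF for 10 days, and MHCII+ cells were isolated magnetically from untreated cultures or from cultures given 100 ng/mL LPS for 24 h, a time that the methods call overnight. Each of the 4 groups held 3 libraries.

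Immune cells carry receptors in opposing pairs. Inhibitory receptors hold immunoreceptor tyrosine-based inhibitory motifs (ITIMs) in their cytoplasmic tail. Once phosphorylated, these recruit the phosphatases SHP-1, SHP-2 and SHIP-1, which dampen the kinase signals of activating receptors, Toll-like receptors and integrins. Activating receptors with short tails instead pair with adaptors such as DAP12, whose ITAM (the activating counterpart of the ITIM) recruits the kinase Syk. In macrophages and neutrophils DAP12 also takes part in signalling from integrins that contain CD18.

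The 10 genes were described by the inhibitory and activating motifs in their coding sequence. The motifs below belong to the genes whose levels changed or whose reads were shared with a neighbour. The reference coding sequence (GRCm39) was searched for the ITIM as I, V, L or S, any residue, Y, any 2 residues and I, V or L, after the predicted membrane segment. It held 15 such motifs in 7 of the genes, namely 3 each in Pirb and Siglecg, 2 each in Lilrb4a, Cd300a, Cd300lf and Lair1, and 1 in Siglece. Tyrobp was left out of the ITIM search by choice, so whether its ITAM also fits this pattern is not given. Siglec1, an adhesion receptor of macrophages, held none, and neither did Cd200r1, which signals through a different tyrosine motif (NPXY) that binds Dok proteins. The capitals mark the codon of the tyrosine that is phosphorylated.
Pirb, second ITIM: gtgaccTATgcccagctg
Lilrb4a, second ITIM: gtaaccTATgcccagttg
Lair1, first ITIM: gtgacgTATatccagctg
Cd300a, first ITIM: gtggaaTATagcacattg
Cd200r1, NPXY motif: aatccactcTAT
Tyrobp, ITAM: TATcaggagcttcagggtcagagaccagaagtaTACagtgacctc
These lie at chr7:3715785-3715802 (minus strand), chr10:51372290-51372307 (plus), chr7:4012789-4012806 (minus), chr11:114790672-114790689 (plus), chr16:44614602-44614613 (plus) and chr7:30115095-30116807 (plus), respectively. The ITAM codons of Tyrobp are split by an intron. Pirb (chr7:3714408-3723390), Lair1 (chr7:4006401-4066203) and Siglece (chr7:43300494-43309585), all on the minus strand, share chromosome 7 with Siglecg (chr7:43057628-43067782) and Tyrobp (chr7:30113185-30117010) on the plus strand. Cd300a (chr11:114780867-114795480, plus) and Cd300lf (chr11:115007040-115024818, minus) lie near each other, and Siglec1 (chr2:130911140-130928685, minus) and Cd200r1 (chr16:44586099-44615341, plus) lie apart from the rest. The second ITIM of Pirb was identical to that of Lilrb4a at 16 of 18 bases and to the first ITIM of Lair1 at 15 of 18.

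The libraries held between 29689149 and 34037178 total gene reads. Levels are given as CPM, the reads of a gene relative to the size of the library, scaled by TMM, which corrects for differences in RNA composition. A floor of 3 reads equalled 0.0881 to 0.101 CPM and covers counting error only, since PCR copies were not told apart. Libraries with the same replicate number deviated together in every comparison, as did replicates 1 and 2 to a lesser extent in most, and several of the 10 genes were far from the other libraries in replicate 3. Results are therefore given for the 3 libraries of each group, with the replicate number as a block, and for replicates 1 and 2 alone. In addition, the Y-linked genes Ddx3y, Kdm5d, Uty and Eif2s3y were at 0 to 0.0647 CPM in both CD18CD11c cKO replicate 3 libraries and between 6.15 and 223.8 CPM in the other 10, and the part of this difference in the results was not tested. All 11 markers of dendritic cells averaged above 1 CPM, and so did all 11 markers of macrophages. Among the former, H2-Ab1, an MHCII gene in cells isolated as MHCII+, was at 4237 to 13255 CPM, and Flt3 was at 0.227 to 35.4 CPM. The 11 macrophage markers summed to 1076 to 2272 CPM and neutrophil markers, 6 of 9 of which averaged above 1 CPM, to 10.7 to 1325 CPM, highest in unstimulated CD18fl/fl replicate 1. Itgb2 itself, the targeted gene, was at 379 to 420 CPM in unstimulated CD18fl/fl and 120 to 189 CPM in unstimulated CD18CD11c cKO BMDCs, and at 167 to 266 CPM and 89.7 to 119 CPM after LPS. Its log2 fold change was -1.26 (SE 0.23, edgeR adjusted p = 0.0887, with the block 0.00392) and -0.93 (SE 0.29, adjusted p = 0.428, with the block 0.0201). Reads were counted over the whole gene and not over the deleted exon.

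The levels of the 10 genes were compared per kb of exon, since a longer transcript yields more reads. In unstimulated CD18fl/fl BMDCs, Tyrobp was highest at 1376 ± 153 CPM per kb (SD, n = 3). It stood apart from Lilrb4a, the next in order, at 159 ± 146. Lilrb4a encodes an inhibitory immunoglobulin-like receptor of myeloid cells.
Then followed Cd200r1 (52.9 ± 20.8 CPM per kb), the receptor for CD200, and Pirb (48.4 ± 19.7), an inhibitory receptor for MHC class I. Cd300a (36.3 ± 15.4) and Cd300lf (30.2 ± 33.5) encode receptors for phospholipids. From Lilrb4a to Lair1, a collagen receptor (7.12 ± 1.72), each gene overlapped with its neighbour in the order. The sialic acid-binding receptors Siglece (1.28 ± 0.336), Siglec1 (0.851 ± 0.674) and Siglecg (0.736 ± 0.248) formed the lower end and overlapped among themselves, and none of them overlapped with Lair1.
After LPS in CD18fl/fl BMDCs, Pirb took the place behind Lilrb4a with 100.9 ± 61.9 CPM per kb. Cd200r1 and Cd300a had moved behind Cd300lf, at 15.9 ± 2.81 and 8.10 ± 5.49. Tyrobp ranked first and Lilrb4a second in all 4 groups. The rank of Lilrb4a rests on reads shared with Gm49339, since only 5.78% to 8.93% of its reads were placed uniquely. Siglec1 was last or next to last in each.

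**Figure D1:**
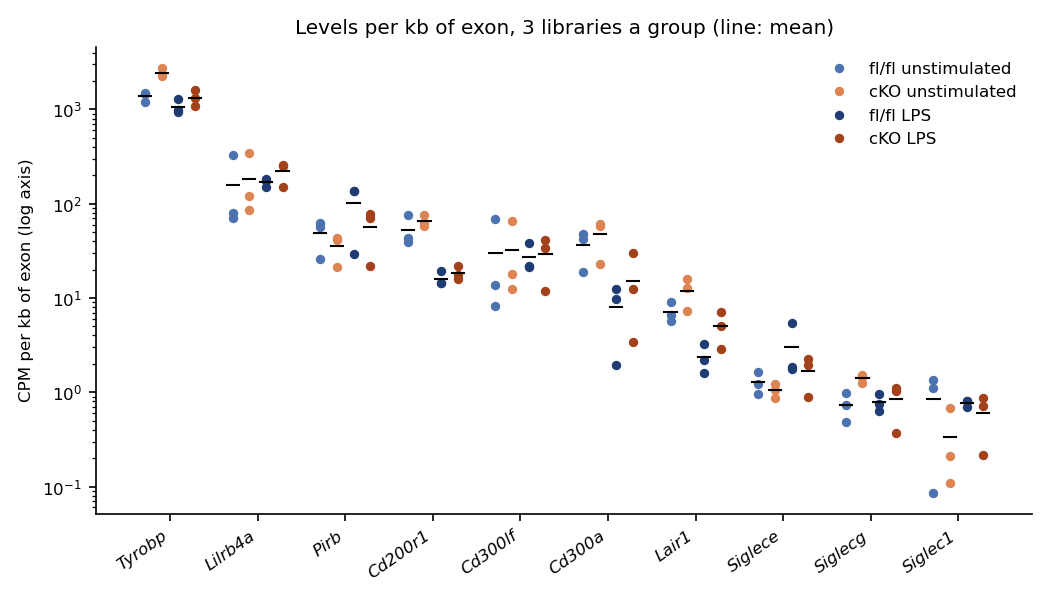
Levels of the 10 genes as CPM per kb of exon on a log axis, with 3 libraries in each of 4 groups (points) and their mean (line). Tyrobp lay above all other genes in every group, and Siglece, Siglecg and Siglec1 lay at the low end.

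Unstimulated BMDCs of both genotypes were compared first, which asks whether loss of CD18 alters the resting level of these receptors. With the replicate block, the adaptor gene Tyrobp was higher in CD18CD11c cKO BMDCs at an edgeR adjusted p under 0.05, and no inhibitory receptor passed. Once a correction for gene length was added, Cd300a passed and Tyrobp did not. Tyrobp was at 966, 801 and 988 CPM in CD18fl/fl and at 1497, 1823 and 1567 CPM in CD18CD11c cKO replicates 1, 2 and 3, with no overlap between the groups. The log2 fold change was 0.89 (SE 0.20), and the adjusted p of edgeR's quasi-likelihood test was 0.122.
With the replicate block the value was 0.88 (SE 0.17, edgeR adjusted p = 0.0127), and in replicates 1 and 2 alone 0.97 (adjusted p = 0.0327). Tyrobp has the shortest exon length of the 10 genes (667 bases). When the block was combined with a correction for gene length, its log2 fold change was 0.09 (SE 0.15, edgeR adjusted p = 0.722).

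Without the block, edgeR called 0 of 12876 genes between the unstimulated genotypes (0%), with 2159 genes at an unadjusted p under 0.05, and 509 genes by DESeq2, Tyrobp among them. With the block 1 of the 10 genes was higher, against 12.1% of all genes, and none was lower. In replicates 1 and 2 alone it was again 1 of the 10, against 7.9%. The groups did not overlap in 2 of the 10 genes, Tyrobp and Siglecg, both higher in CD18CD11c cKO, as did 11.7% of all genes.

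Siglecg, a receptor of B cells and some myeloid cells, was at 1.89, 2.53 and 1.26 CPM in CD18fl/fl and at 3.91, 3.2004 and 3.70 CPM in CD18CD11c cKO BMDCs. All libraries of the latter were above those of the former, at levels that rest on few reads (21 to 128 reads in any library). The log2 fold change was 0.98 (SE 0.42, edgeR adjusted p = 0.301, with the block 0.121). B cell markers, 5 genes of which 4 averaged above 1 CPM, summed to 1.02 to 94.9 CPM in unstimulated CD18fl/fl and 0.636 to 138 CPM in unstimulated CD18CD11c cKO BMDCs. In the order of replicates 1, 2 and 3 these sums were 30.9, 94.9 and 1.02 CPM in CD18fl/fl and 111, 138 and 0.636 CPM in CD18CD11c cKO BMDCs. Their part in the level of Siglecg was not tested.

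Among the receptors with ITIMs, Lair1 was at 66.0, 48.4 and 41.6 CPM in unstimulated CD18fl/fl and at 52.9, 116 and 93.0 CPM in unstimulated CD18CD11c cKO BMDCs. Replicate 1 went the opposite way from replicates 2 and 3 (log2 fold change 0.80, SE 0.34, edgeR adjusted p = 0.3004, with the block 0.112). With block and length correction the log2 fold change of Lair1 was 1.07 (SE 0.30, edgeR adjusted p = 0.0542).
Cd300a was at 222, 197 and 87.0 CPM against 271, 280 and 107.7 CPM. Within each replicate number it was higher in the CD18CD11c cKO library, by 0.29 to 0.51 on the log2 scale, but replicate 3 was low in both groups. The fold change was 0.43 (SE 0.48, edgeR adjusted p = 0.703). With the block the adjusted p was 0.0599, and the combined block and length correction gave 0.61 (SE 0.14, adjusted p = 0.0318).
Cd200r1 was at 144, 130 and 257 CPM against 195, 208 and 254 CPM (log2 fold change 0.37, SE 0.29, edgeR adjusted p = 0.565). Pirb was at 239, 217 and 99.3 CPM against 164, 159 and 81.8 CPM, lower in the CD18CD11c cKO library of each replicate number (-0.41, SE 0.42, edgeR adjusted p = 0.664, with the block 0.0965). The remaining receptors overlapped widely, and the log2 fold change was 0.28 (SE 0.74) for Lilrb4a, 0.16 (SE 0.92) for Cd300lf, -0.24 (SE 0.43) for Siglece and -1.31 (SE 1.05) for Siglec1. Scaling by library size alone turned the sign for Lilrb4a (-0.09), Cd300lf (-0.20) and Cd200r1 (-0.02). Over the 10 genes the median log2 fold change was 0.32, beside -0.05 over all genes tested.

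**Figure D2:**
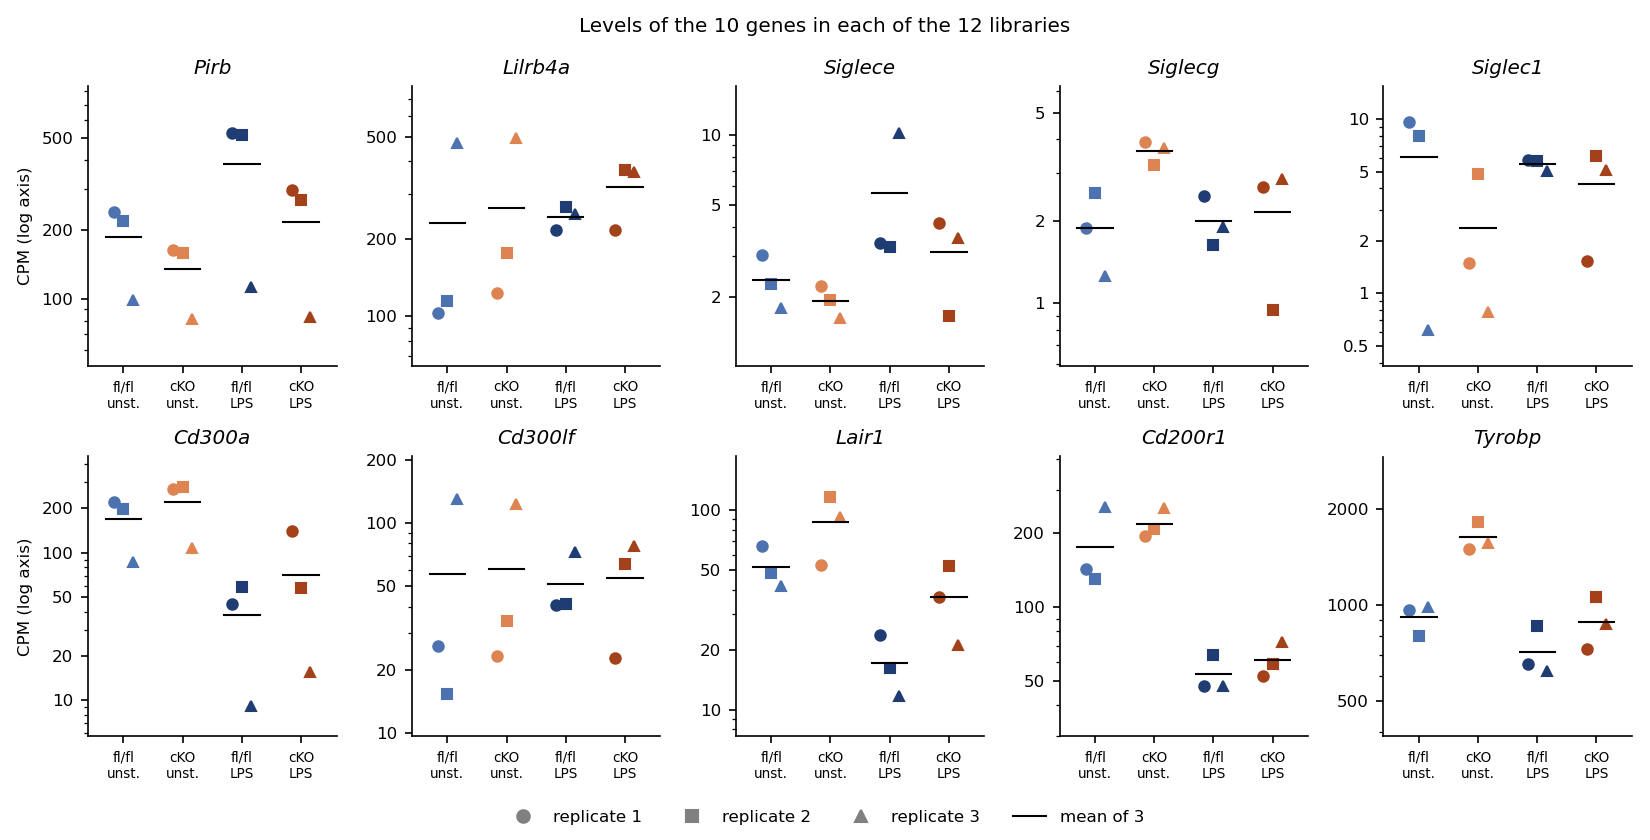
CPM of each of the 10 genes in each library on log axes, with the groups on the x axis, symbols for replicates 1 to 3 and lines for group means. Tyrobp in unstimulated CD18CD11c cKO BMDCs (1497 to 1823 CPM) lies above the other groups, and Lair1, Cd300a and Cd200r1 are low in the LPS groups.

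LPS-treated BMDCs of both genotypes were compared to ask the same of activated cells. Lair1 was higher and Pirb lower in CD18CD11c cKO BMDCs once the replicate number was taken into account. Lair1 was at 23.8, 16.2 and 11.7 CPM in LPS-treated CD18fl/fl and at 36.6, 52.5 and 21.2 CPM in LPS-treated CD18CD11c cKO BMDCs, higher in the latter within each replicate number by 0.62 to 1.69 on the log2 scale. The groups overlapped, since replicate 3 was lowest in each. The log2 fold change was 1.06 (SE 0.40, edgeR adjusted p = 0.481), with the block 1.03 (SE 0.23, adjusted p = 0.0345), and with block and length correction 1.22 (adjusted p = 0.0173). In replicates 1 and 2 alone it was 1.12 (SE 0.27) and the edgeR adjusted p of 0.0557 missed the threshold of 0.05.

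Pirb was at 527, 519 and 113 CPM in LPS-treated CD18fl/fl and at 297, 268 and 83.7 CPM in LPS-treated CD18CD11c cKO BMDCs. Replicates 1 and 2 lay far above replicate 3 in each group, and within each number the CD18CD11c cKO library was lower, by 0.43 to 0.95 on the log2 scale. The log2 fold change was -0.87 (SE 0.67, edgeR adjusted p = 0.732), with the block -0.76 (SE 0.16, adjusted p = 0.0280), and in replicates 1 and 2 alone -0.92 (SE 0.19, adjusted p = 0.0390). With block and length correction the adjusted p was 0.0638. Pirb shares sequence with the neighbouring activating Pira genes, and 83.5% to 86.2% of its reads were placed uniquely. When the reads of Pirb, 4 Pira genes and Lilra6 were summed, a choice made after the data had been seen, the log2 fold change with the block was -0.40 (SE 0.20, edgeR adjusted p = 0.238).

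Without the block edgeR called 0 of 12441 genes between the LPS-treated genotypes (0%), with 1212 at an unadjusted p under 0.05 and 153 genes by DESeq2, none of the 10 among them. With the block, 1 of the 10 genes was higher against 6.98% of all genes, and 1 was lower against 3.16%. In replicates 1 and 2 alone, 1 of the 10 was lower against 0.977%. The groups overlapped in all 10 genes, while 17.6% of all genes did not overlap in either direction.

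Without the length correction, the log2 fold change of Tyrobp between the genotypes was smaller after LPS than in unstimulated BMDCs. The interaction of genotype and LPS, given below, did not show that these values differ. Tyrobp after LPS was at 654, 861 and 622 CPM in CD18fl/fl and 731, 1061 and 873 CPM in CD18CD11c cKO libraries. The log2 fold change was 0.29 (SE 0.27, edgeR adjusted p = 0.779). Combining the block with the length correction turned the sign to -0.34 (SE 0.14, adjusted p = 0.196). Cd300a was at 45.3, 58.4 and 9.15 CPM against 140, 57.6 and 15.7 CPM. Its spread came from replicate 3 in both groups and from replicate 1 of CD18CD11c cKO BMDCs (0.89, SE 0.87, edgeR adjusted p = 0.797). The other 6 receptors had log2 fold changes between -0.87 (Siglece) and 0.36 (Lilrb4a).

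**Figure D3:**
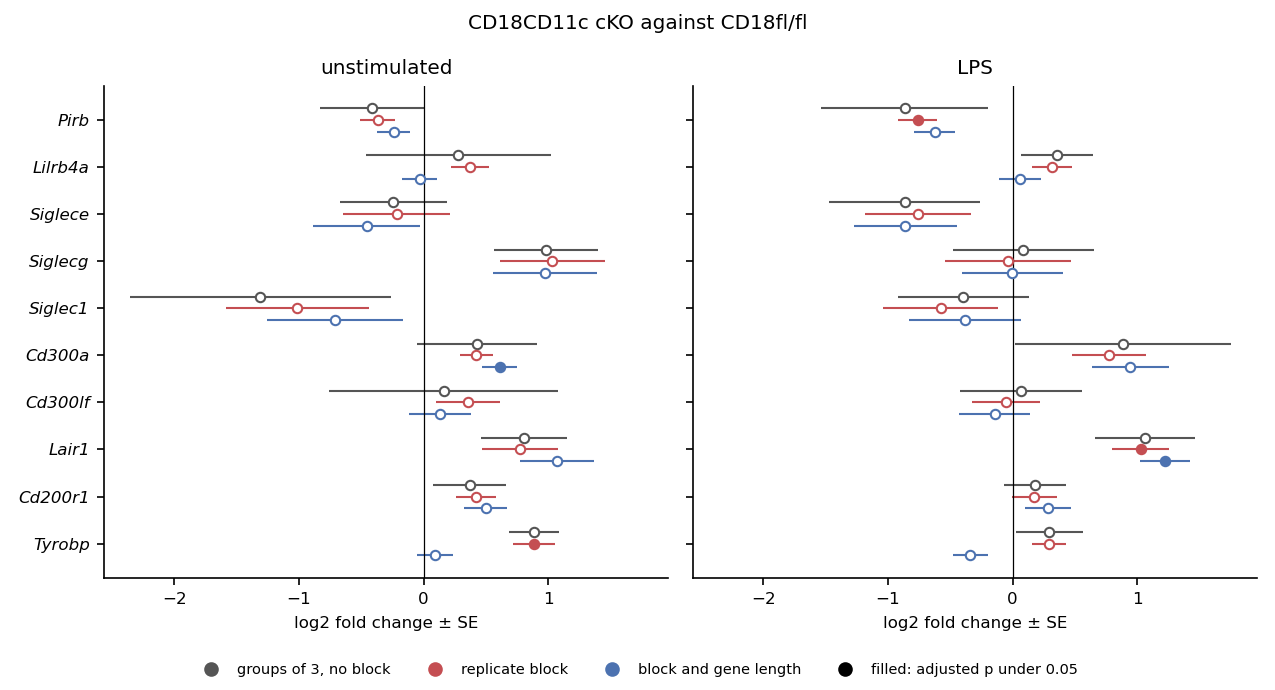
Log2 fold change of CD18CD11c cKO against CD18fl/fl BMDCs (point) with its standard error (bar) for each gene, unstimulated on the left and after LPS on the right, without the replicate block, with it, and with block and gene length correction, where filled points have an adjusted p under 0.05. Tyrobp (unstimulated) and Pirb and Lair1 (LPS) are filled with the block, and Tyrobp moves to 0.09 with the length correction.

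LPS against no stimulation was compared within each genotype. Cd200r1 fell in both, and Cd300a and Lair1 fell in both with the replicate block. These receptors recognise CD200, phospholipids and collagen, respectively. Cd200r1 went from 144, 130 and 257 CPM to 47.9, 64.2 and 48.0 CPM in CD18fl/fl BMDCs, without overlap (log2 fold change -1.72, SE 0.33, edgeR adjusted p = 0.0424). In CD18CD11c cKO BMDCs it went from 195, 208 and 254 CPM to 52.6, 58.7 and 72.6 CPM, again without overlap (-1.88, SE 0.26, adjusted p = 0.0210). With the block the edgeR adjusted p was 0.0255 and 0.00179.
The call was lost without replicate 1 or 2 of either group. In these fits edgeR called 0 genes in CD18fl/fl and 0, 4, 26 and 2 in CD18CD11c cKO BMDCs, of 13158 to 13409 tested. With all 6 libraries it had called 496 and 506 genes. In CD18fl/fl BMDCs the adjusted p of Cd200r1 was then 0.126 without unstimulated replicate 1, 0.131 without unstimulated replicate 2, 0.184 without LPS replicate 1 and 0.147 without LPS replicate 2, by edgeR. In CD18CD11c cKO BMDCs the corresponding values were 0.0764, 0.0737, 0.0919 and 0.115. The log2 fold change itself stayed between -1.90 and -1.36 in CD18fl/fl and between -2.07 and -1.75 in CD18CD11c cKO BMDCs over all libraries left out.

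Lair1 in CD18fl/fl BMDCs fell from 66.0, 48.4 and 41.6 CPM to 23.8, 16.2 and 11.7 CPM, with no overlap and a lower value in each replicate number. Its log2 fold change was -1.59 (SE 0.33, edgeR adjusted p = 0.0502), and with the block -1.62 (SE 0.21, adjusted p = 0.00922). In CD18CD11c cKO BMDCs it fell from 52.9, 116 and 93.0 CPM to 36.6, 52.5 and 21.2 CPM. These groups did not overlap either, though by a narrow margin (-1.32, SE 0.41, edgeR adjusted p = 0.126, with the block 0.0243). In replicates 1 and 2 alone the value was -1.04 (SE 0.40) and the edgeR adjusted p of 0.128 missed the threshold.
Cd300a had the lowest log2 fold change of the 10 genes in CD18fl/fl BMDCs, going from 222, 197 and 87.0 CPM to 45.3, 58.4 and 9.15 CPM. Replicate 3 was lowest before and after LPS, and the log2 change within replicate numbers was between -3.24 and -1.75. Its log2 fold change was -2.16 (SE 0.69, edgeR adjusted p = 0.123) and with the block -2.42 (SE 0.34, adjusted p = 0.0113). In CD18CD11c cKO BMDCs it went from 271, 280 and 107.7 CPM to 140, 57.6 and 15.7 CPM, where replicate 1 after LPS overlapped with replicate 3 before it. The values were -1.70 (SE 0.73, edgeR adjusted p = 0.236) and with the block -2.06 (SE 0.35, adjusted p = 0.00937).

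Tyrobp fell with LPS in CD18CD11c cKO BMDCs with the block, from 1497, 1823 and 1567 CPM to 731, 1061 and 873 CPM. The groups did not overlap, and the log2 fold change was -0.92 (SE 0.25, edgeR adjusted p = 0.0893), with the block -0.93 (SE 0.17, adjusted p = 0.0116). With block and length correction it was -1.06 (adjusted p = 0.00937). In CD18fl/fl BMDCs it was at 966, 801 and 988 CPM before and 654, 861 and 622 CPM after LPS, with overlap through replicate 2 (-0.36, SE 0.25, edgeR adjusted p = 0.423). The difference between these effects was tested as the interaction of genotype and LPS. For Tyrobp it was -0.51 (SE 0.32, unadjusted p = 0.140 from edgeR's fit over all genes), with an adjusted p near 1, so the response was not shown to differ between the genotypes. For the other 9 genes the interaction lay between -0.82 (Siglecg, SE 0.69) and 0.98 (Siglec1, SE 1.24). Among 13752 genes edgeR called 0 (0%) without the block and 0 (0%) with it, with 97 and 272 genes at an unadjusted p under 0.05, and DESeq2 called 1.

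The log2 fold change of Pirb had the opposite sign from those of Cd300a and Lair1. Pirb was at 239, 217 and 99.3 CPM in unstimulated and 527, 519 and 113 CPM in LPS-treated CD18fl/fl BMDCs. Replicates 1 and 2 differed by 1.14 and 1.26 on the log2 scale and replicate 3 by 0.18. Its log2 fold change was 1.06 (SE 0.62, edgeR adjusted p = 0.338, with the block 0.0927), and 1.19 (SE 0.17, adjusted p = 0.000123) in replicates 1 and 2 alone. It was 1.49 (adjusted p = 0.0392) without LPS replicate 3. Levels in CD18CD11c cKO BMDCs were 164, 159 and 81.8 CPM before and 297, 268 and 83.7 CPM after LPS (0.61, SE 0.48, edgeR adjusted p = 0.521).
Lilrb4a and Cd300lf also depended on replicate 3. Lilrb4a was at 102, 114 and 472 CPM in unstimulated and 216, 265 and 249 CPM in LPS-treated CD18fl/fl BMDCs, so that replicates 1 and 2 were higher after LPS and replicate 3 lower. Over 3 replicates the log2 fold change was 0.10 (SE 0.59, edgeR adjusted p = 0.937), and in replicates 1 and 2 alone 1.15 (SE 0.17, adjusted p = 0.000218).
Cd300lf, at 25.8, 15.4 and 130 CPM before and 40.7, 41.0 and 72.8 CPM after LPS, behaved alike. Its log2 fold change was -0.14 (SE 0.76, edgeR adjusted p = 0.932) and in replicates 1 and 2 alone 0.98 (SE 0.23, adjusted p = 0.00402). After LPS in CD18CD11c cKO BMDCs neither Lilrb4a (0.22, SE 0.54) nor Cd300lf (-0.18, SE 0.71) passed the threshold, and in replicates 1 and 2 alone they were at 0.87 and 0.48 without a call.

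In CD18fl/fl BMDCs 1 of the 10 genes was lower with LPS without the block, against 1.83% of all genes. With the block 3 were lower against 6.43%, and in replicates 1 and 2 alone 3 were higher and 3 lower, against 23.2% and 24.3%. The groups did not overlap in 3 genes that were lower (15.9% of all genes) and in Siglece, which was higher (13.6% of all genes). For CD18CD11c cKO BMDCs 1 of the 10 genes was lower without the block against 1.76%, 4 with it against 9.93%, and 3 in replicates 1 and 2 alone against 7.99%. The groups did not overlap in 4 genes, all lower, against 13.4% of all genes.

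**Figure D4:**
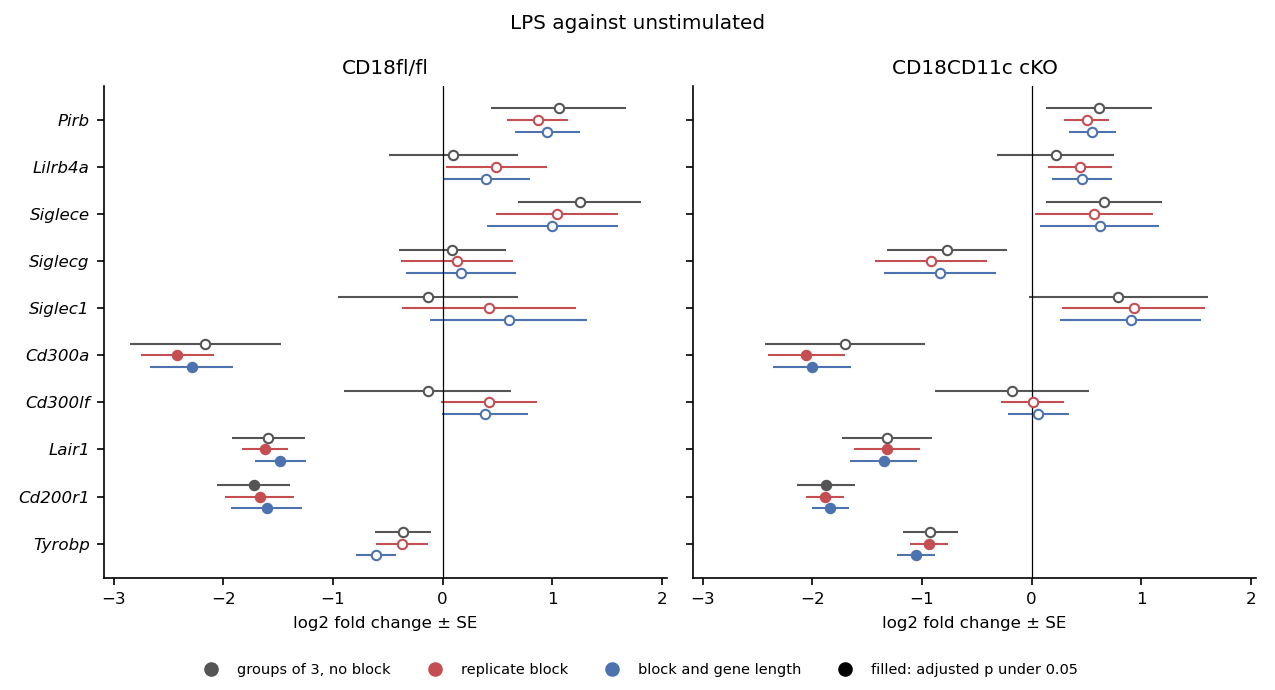
Log2 fold change of LPS-treated against unstimulated BMDCs (point) with its standard error (bar) for each gene in CD18fl/fl (left) and CD18CD11c cKO (right), in the 3 fits, where filled points have an adjusted p under 0.05. Cd200r1 is filled in every fit of both panels, Cd300a and Lair1 with the block, and Tyrobp on the right with the block.

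The sialic acid receptors were scarce. Siglece, which binds sialic acid on myeloid cells and holds an ITIM, was at 3.02, 2.28 and 1.79 CPM in unstimulated and 3.40, 3.27 and 10.1 CPM in LPS-treated CD18fl/fl BMDCs. The groups did not overlap, but most of the difference lay in replicate 3 (log2 fold change 1.25, SE 0.56, edgeR adjusted p = 0.229), and replicates 1 and 2 alone gave 0.33 (SE 0.42). Levels in CD18CD11c cKO BMDCs were 2.24, 1.93 and 1.62 CPM before and 4.17, 1.66 and 3.59 CPM after LPS.
Siglec1 was at 9.68, 7.95 and 0.614 CPM in unstimulated and 5.81, 5.76 and 5.03 CPM in LPS-treated CD18fl/fl BMDCs. Its sign over LPS thus differed between replicate 3 and the others. Levels in CD18CD11c cKO BMDCs were 1.49, 4.87 and 0.780 CPM before and 1.54, 6.15 and 5.11 CPM after LPS. Siglecg stayed within 0.943 to 3.91 CPM in all libraries. Its unstimulated and LPS-treated groups did not overlap in CD18CD11c cKO BMDCs, where LPS-treated libraries held 2.67, 0.943 and 2.85 CPM (log2 fold change -0.77, SE 0.55, edgeR adjusted p = 0.475). B cell markers summed to 1.55 to 41.4 CPM there, and their part in this value was not tested.

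The replicate 3 libraries showed which of the 10 genes moved together apart from the groups. In unstimulated CD18fl/fl BMDCs, replicate 3 held 6.30 times the mean of replicates 1 and 2 for Cd300lf, 4.36 times for Lilrb4a and 1.88 times for Cd200r1. It held 0.435 times for Pirb, 0.415 times for Cd300a and 0.0697 times for Siglec1. Unstimulated CD18CD11c cKO BMDCs had the same order at the top, with 4.30 for Cd300lf and 3.30 for Lilrb4a, and at the bottom 0.245 for Siglec1 and 0.391 for Cd300a. After LPS the ratio for Lilrb4a was 1.04 and 1.23, whereas that for Cd300a was 0.176 and 0.158 and that for Pirb 0.215 and 0.296, in CD18fl/fl and CD18CD11c cKO BMDCs.
Tyrobp differed least, at 0.822 to 1.12 in the 4 groups. Over the 12 libraries, deviations from the group means correlated with r = 0.96 between Pirb and Cd300a and r = 0.94 between Lilrb4a and Cd300lf. The points share libraries and the distance of replicate 3, and these r values are descriptions. Markers of the cell type lists also stood apart in replicate 3, some lists in 1 direction and others in either. In unstimulated CD18fl/fl BMDCs all 9 neutrophil and all 5 B cell markers were lowest in replicate 3. In unstimulated CD18CD11c cKO BMDCs 6 of the 9 neutrophil and all 5 B cell markers were lowest there, and none was highest. Of the 11 dendritic cell markers, 9 were lowest and 2 highest in replicate 3 of unstimulated CD18fl/fl BMDCs, and 6 were lowest and 3 highest in that of unstimulated CD18CD11c cKO BMDCs. Their sums there were 16142 and 21253 CPM, against 25689 and 25961 CPM and 36960 and 25923 CPM in replicates 1 and 2. In unstimulated CD18fl/fl BMDCs Flt3, the growth factor receptor of dendritic cells, was at 2.24 CPM in replicate 3 against 26.4 and 35.4 CPM, whereas Itgax, which encodes CD11c, was at 453 CPM against 174 and 210 CPM. Of the 6 mast cell and basophil markers, 4 were lowest and 2 highest in the first of these libraries, and 3 were lowest and 3 highest in the second. There Cpa3 was at 34.8 and 115 CPM (2.28 to 5.94 CPM in replicates 1 and 2), whereas Kit was at 1.98 and 0.578 CPM (22.3 to 29.3 CPM in replicates 1 and 2). The part of these differences in the levels of the 10 genes was not tested, and in bulk RNA fewer cells of a type cannot be told apart from less RNA per cell.

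Most reads of Lilrb4a cannot be assigned to it alone. Of its reads, 5.78% to 8.93% were placed uniquely per library. The gene lies at chr10:51367052-51372707 (plus strand, GRCm39). A gene named Gm49339 (chr10:51356708-51372709) spans both Lilrb4a and its neighbour Lilr4b, a relative that lacks ITIMs. All 1404 stretches of 59 bases (the read length) in the main transcript of Lilrb4a were also found in Gm49339, and 27.4% of them in Lilr4b. Gm49339 held 6278 to 22280 reads per library, of which 5.68% to 9.91% were unique, and Lilrb4a held 3436 to 17650. The level of Lilrb4a therefore depends on how reads were divided among the pair.
Summing Lilrb4a and Gm49339 gave a log2 fold change between the genotypes of 0.44 (SE 0.61, edgeR adjusted p = 0.761, with the block 0.0810) in unstimulated and 0.43 (SE 0.25, adjusted p = 0.642, with the block 0.1002) in LPS-treated BMDCs. These sums, added after the data had been seen, gave no call for LPS either. Lilr4b, at 79.0% to 87.2% unique reads, was higher in LPS-treated CD18CD11c cKO than CD18fl/fl BMDCs with the block (0.57, SE 0.14, edgeR adjusted p = 0.0458), with 234, 329 and 293 against 173, 198 and 192 CPM. With block and length correction its adjusted p was 0.104. The gene Rab37 on the opposite strand overlaps Cd300lf and held 7 to 203 reads. Of the reads of Cd300lf, 94.1% to 99.1% were placed uniquely. Without strand-specific counting, reads from any stretch where exons of both genes overlap cannot be told apart.

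**Figure D5:**
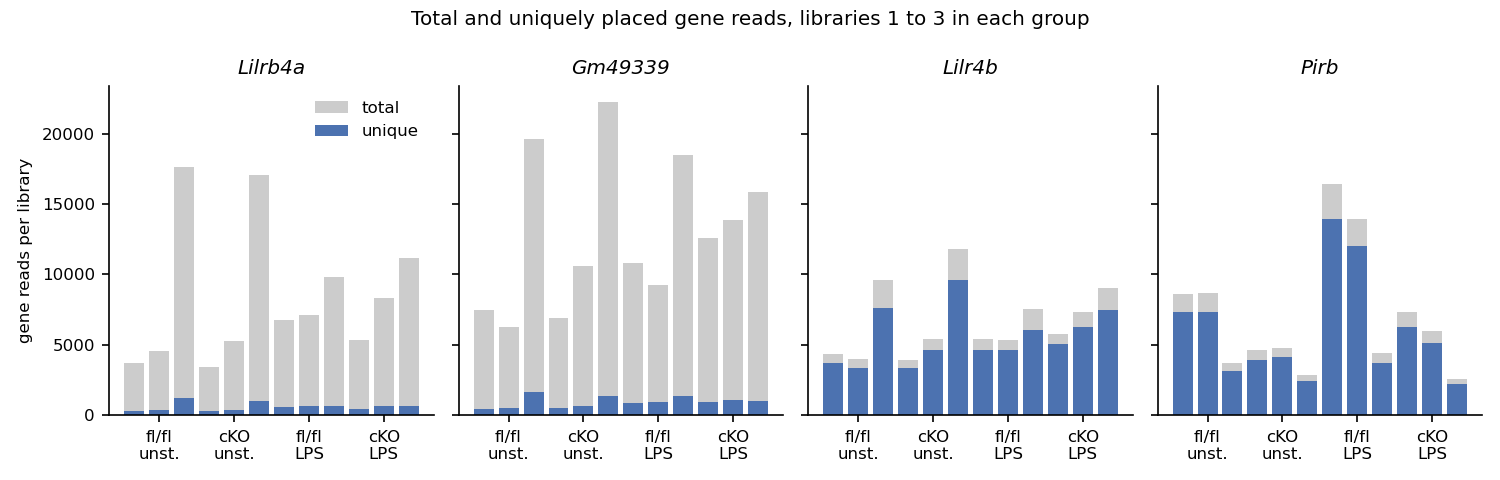
Total gene reads (grey bars) and the part placed uniquely (blue bars) in each library, in the order of replicates 1 to 3 within 4 groups, for Lilrb4a, Gm49339, Lilr4b and Pirb. Under 10% of the reads of Lilrb4a and Gm49339 are unique, and at least 83.5% of those of Pirb.

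Promoters were available for 6 of the 10 genes in the RefSeq table (GRCm38.p6, 250 bases before to 50 after the start), namely Pirb, Lair1, Siglecg, Siglece, Cd300a and Cd300lf. They are shown for Lair1 and Cd300a, which moved together with LPS, and for Pirb, which did not. Capitals mark GAGGAA or its reverse complement TTCCTC, the core to which the myeloid factor PU.1 and related ETS proteins are known to bind.
Lair1, chr7:4063155-4063454 (minus strand): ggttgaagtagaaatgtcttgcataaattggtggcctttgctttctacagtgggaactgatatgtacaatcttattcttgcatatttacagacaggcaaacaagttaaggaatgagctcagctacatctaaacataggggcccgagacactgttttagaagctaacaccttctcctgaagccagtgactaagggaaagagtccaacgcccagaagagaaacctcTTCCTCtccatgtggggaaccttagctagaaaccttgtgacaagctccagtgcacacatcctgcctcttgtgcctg
Cd300a, chr11:114889791-114890090 (plus strand): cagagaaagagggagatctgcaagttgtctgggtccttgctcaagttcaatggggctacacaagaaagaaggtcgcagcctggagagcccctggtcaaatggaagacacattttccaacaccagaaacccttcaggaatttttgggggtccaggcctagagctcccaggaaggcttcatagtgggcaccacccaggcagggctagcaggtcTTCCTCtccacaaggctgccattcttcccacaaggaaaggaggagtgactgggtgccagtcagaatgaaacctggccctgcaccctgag
Pirb, chr7:3720333-3720632 (minus strand): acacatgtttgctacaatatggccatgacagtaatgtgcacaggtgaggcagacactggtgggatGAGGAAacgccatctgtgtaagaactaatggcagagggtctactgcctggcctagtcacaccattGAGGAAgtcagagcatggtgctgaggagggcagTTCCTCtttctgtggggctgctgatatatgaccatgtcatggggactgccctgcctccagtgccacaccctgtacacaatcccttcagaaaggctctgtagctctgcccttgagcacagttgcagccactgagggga
GAGGAA on either strand was found once in each of Lair1 and Cd300a, at 26 and 39 bases before the start counted to the far end of the match, and 3 times in Pirb. At least 1 start of each of the 6 genes held it, and 28.3% of 32851 promoters in the table did. The longer GAGGAAGT, which contains it, was found in Pirb and Cd300lf and in 3.202% of all promoters. TGACTCA, an AP-1 element, was found in none of the 6, against 5.20% of all promoters. A match describes these letters and not the binding of a factor.

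A further 12 genes were taken as a list of ITIM receptors. Their sequences were not searched for the motif, so not each of them need hold one. With LPS, 2 of 12 fell and none rose in CD18fl/fl BMDCs without the block (1.83% and 2.06% of all genes), and 5 fell with it (6.43%), with a median log2 fold change of -1.19 without the block beside -0.02 over all genes. Of the same 12 genes in CD18CD11c cKO BMDCs, 3 fell without the block and 7 with it (9.93% of all genes), with a median of -1.38. Clec4a2, the C-type lectin DCIR, fell from 79.7 ± 38.3 to 10.7 ± 2.55 CPM in CD18fl/fl (log2 fold change -2.89, SE 0.46, edgeR adjusted p = 0.0264) and from 121 ± 45.2 to 11.9 ± 4.58 CPM in CD18CD11c cKO BMDCs (-3.41, SE 0.42, adjusted p = 0.0167, each mean ± SD, n = 3).
Siglecf, a sialic acid receptor best known from eosinophils, fell from 12.8 ± 10.1 to 0.160 ± 0.179 CPM in CD18fl/fl BMDCs (-6.27, SE 1.27, edgeR adjusted p = 0.0461). Its level after LPS was near the floor of 3 reads, so the size of this change rests on very few reads. Fcgr2b, the inhibitory Fc receptor, fell from 102 ± 24.7 to 35.1 ± 8.01 CPM in CD18CD11c cKO BMDCs (-1.59, SE 0.31, adjusted p = 0.0418), as did Clec12a, from 93.9 ± 25.4 to 29.6 ± 7.05 CPM (-1.72, SE 0.31, adjusted p = 0.0360).
Between the genotypes none of those tested passed without the block. With it, 2 were higher and 3 lower in unstimulated CD18CD11c cKO BMDCs (12.1% and 8.16% of all genes). Milr1 (0.68, SE 0.16, edgeR adjusted p = 0.0250) and Clec4a2 (0.73, SE 0.18, adjusted p = 0.0272) were higher. Sirpa, the receptor for CD47 (-0.85, SE 0.16, adjusted p = 0.0122), Fcgr2b (-0.77, SE 0.15, adjusted p = 0.0149) and Cd33 (-0.57, SE 0.16, adjusted p = 0.0429) were lower. After LPS, Milr1 was again higher (0.75, SE 0.17, edgeR adjusted p = 0.0386), at 133 ± 32.4 against 76.6 ± 5.71 CPM.

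Activating relatives and partners of DAP12 were listed as 37 genes, of which 33 were matched by name and 28 to 30 tested. In unstimulated BMDCs 5 of 30 were higher in CD18CD11c cKO with the block and none lower, against 12.1% and 8.16% of all genes. Among the 5 were Cd300e, an activating receptor of the CD300 family (2.78, SE 0.47, edgeR adjusted p = 0.00858, 17.3 ± 11.3 against 2.70 ± 2.33 CPM), and Cd300c2 (0.76, SE 0.19, adjusted p = 0.0314, 287 ± 105 against 178 ± 63.3 CPM). The natural killer receptor gene Klrk1 was also higher (0.99, SE 0.23, adjusted p = 0.0251). The median over the 30 genes was 0.42, beside -0.07 over all genes.
After LPS, Cd300c2 (0.89, SE 0.15, edgeR adjusted p = 0.0156) and Lilr4b were higher and Tarm1 (-0.59, SE 0.14, adjusted p = 0.0444) lower with the block, against 6.98% and 3.16% of all genes. With LPS in CD18CD11c cKO BMDCs, 3 of 30 fell without the block and none rose, against 1.76% and 2.23% of all genes. Clec5a, a partner of DAP12, fell from 24.2 ± 6.25 to 5.43 ± 0.719 CPM (-2.20, SE 0.30, edgeR adjusted p = 0.0205) and Cd300e from 17.3 ± 11.3 to 0.588 ± 0.481 CPM (-4.94, SE 0.81, adjusted p = 0.0287). Cd300ld3 fell from 5.33 ± 2.20 to 0.159 ± 0.157 CPM (-5.09, SE 1.03, adjusted p = 0.0450), a level near the floor of 3 reads.
With the block, 7 fell and 2 rose in CD18fl/fl (6.43% and 6.33% of all genes), and 10 fell and 1 rose in CD18CD11c cKO BMDCs (9.93% and 10.2%). Tarm1, a receptor that pairs with the Fc receptor γ chain, rose in both (1.53, SE 0.22, edgeR adjusted p = 0.0125 and 1.15, SE 0.21, adjusted p = 0.0120). In CD18fl/fl BMDCs Treml4 rose (3.03, SE 0.42, adjusted p = 0.0111) and Cd300ld (-2.08, SE 0.22, adjusted p = 0.00619), Clec5a (-2.99, SE 0.37, adjusted p = 0.00805) and Cd300lb (-1.45, SE 0.23, adjusted p = 0.0159) fell. Cd200r3 fell in CD18CD11c cKO BMDCs (-2.09, SE 0.28, adjusted p = 0.00446).

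Downstream of the receptors, the adaptors and kinases of ITAM signalling were listed as 18 genes, 17 of which were tested. In each genotype 1 of 17 fell with LPS without the block and none rose, where 1.83% (CD18fl/fl) and 1.76% (CD18CD11c cKO) of all genes fell. This was Fgr, a Src family kinase of myeloid cells, from 48.5 ± 2.46 to 11.4 ± 3.31 CPM in CD18fl/fl (-2.08, SE 0.27, edgeR adjusted p = 0.0162) and from 40.7 ± 4.504 to 5.88 ± 3.2004 CPM in CD18CD11c cKO BMDCs (-2.82, SE 0.50, adjusted p = 0.0342). With the block 4 fell and 1 rose in CD18fl/fl and 7 fell and 1 rose in CD18CD11c cKO BMDCs, where 6.43% and 9.93% of all genes fell and 6.33% and 10.2% rose. They included Plcg2 (-1.82, SE 0.33, edgeR adjusted p = 0.0229 and -1.41, SE 0.27, adjusted p = 0.0136) among those that fell and Malt1 as the one that rose (0.96, SE 0.21, adjusted p = 0.0360 and 0.76, SE 0.18, adjusted p = 0.0292). Btk fell in CD18fl/fl (-0.90, SE 0.21, adjusted p = 0.0433) and Card9 in CD18CD11c cKO BMDCs (-1.59, SE 0.24, adjusted p = 0.00685).
Between the unstimulated genotypes, with the block, 1 of 17 was higher and 3 were lower (12.1% and 8.16% of all genes). Syk, the kinase that binds the ITAM of DAP12, was lower in CD18CD11c cKO BMDCs (-0.70, SE 0.16, edgeR adjusted p = 0.0217, 103 ± 15.7 against 179 ± 55.3 CPM). Vav1 (-0.77, SE 0.17, adjusted p = 0.0216) and Plcg2 (-0.62, SE 0.17, adjusted p = 0.0425) were lower too, whereas Lat2, a transmembrane adaptor, was higher (0.66, SE 0.17, adjusted p = 0.0364). Vav1 was also lower after LPS (-0.85, SE 0.17, adjusted p = 0.0252).

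The effectors recruited by ITIMs and by Cd200r1 were a list of 10 genes, all tested. Dok2, which binds the NPXY motif of the CD200 receptor, fell with LPS in both genotypes, like Cd200r1. It went from 84.9 ± 17.9 to 10.99 ± 3.21 CPM in CD18fl/fl (-2.94, SE 0.32, edgeR adjusted p = 0.0138) and from 134 ± 50.2 to 15.8 ± 4.67 CPM in CD18CD11c cKO BMDCs (-3.11, SE 0.40, adjusted p = 0.0173), the only call in the list without the block. Its relative Dok1 rose with the block (1.66, SE 0.29, edgeR adjusted p = 0.0203 and 1.57, SE 0.17, adjusted p = 0.00258), and Inpp5d, which encodes SHIP-1, fell (-1.46, SE 0.26, adjusted p = 0.0209 and -1.10, SE 0.23, adjusted p = 0.0171).
Csk, the kinase that restrains Src kinases, fell likewise (-1.17, SE 0.26, edgeR adjusted p = 0.0377 and -1.03, SE 0.20, adjusted p = 0.0146), and Grb2 rose in CD18CD11c cKO BMDCs (0.62, SE 0.17, adjusted p = 0.0457). With the block 3 of 10 fell and 1 rose in CD18fl/fl (6.43% and 6.33% of all genes), and 3 fell and 2 rose in CD18CD11c cKO BMDCs (9.93% and 10.2%). Between the unstimulated genotypes, with the block, 1 was higher and 3 were lower (12.1% and 8.16% of all genes). Dok2 was higher (0.67, SE 0.16, edgeR adjusted p = 0.0277). Inpp5d (-0.69, SE 0.15, adjusted p = 0.0180), Cbl (-0.63, SE 0.15, adjusted p = 0.0249) and Inppl1 (-0.60, SE 0.16, adjusted p = 0.0360) were lower in CD18CD11c cKO BMDCs.

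The ligands of the receptors were a list of 18 genes, 12 or 13 of which were tested. Cd200, the ligand of Cd200r1, rose with LPS as its receptor gene fell, from 20.1 ± 7.22 to 176 ± 83.0 CPM in CD18fl/fl (3.13, SE 0.50, edgeR adjusted p = 0.0272) and from 28.4 ± 10.9 to 237 ± 17.1 CPM in CD18CD11c cKO BMDCs (3.01, SE 0.34, adjusted p = 0.0131). It was the only ligand called higher without the block in either genotype, while 4 of 13 and 2 of 12 were lower, where 2.06% and 2.23% of all genes were higher and 1.83% and 1.76% lower. C1qa, a component of complement C1q, which binds Lair1, fell from 130 ± 18.8 to 15.9 ± 5.24 CPM (-3.03, SE 0.33, edgeR adjusted p = 0.0138) and from 213 ± 64.0 to 13.9 ± 10.9 CPM (-3.96, SE 0.76, adjusted p = 0.0415).
Spn, which encodes the sialylated surface protein CD43, fell as well (-3.07, SE 0.39, edgeR adjusted p = 0.0162 and -3.44, SE 0.45, adjusted p = 0.0182), as did C1qb in CD18fl/fl BMDCs (-2.62, SE 0.28, adjusted p = 0.0138). With the block the MHC class I genes B2m (1.10, SE 0.19, edgeR adjusted p = 0.0209 and 0.79, SE 0.16, adjusted p = 0.0179) and H2-K1 (0.93, SE 0.19, adjusted p = 0.0305 and 0.82, SE 0.16, adjusted p = 0.0160), ligands of Pirb, rose in both genotypes.
In unstimulated BMDCs, with the block, C1qb (0.77, SE 0.15, edgeR adjusted p = 0.0136), C1qa (0.73, SE 0.18, adjusted p = 0.0296) and Cd24a (0.71, SE 0.20, adjusted p = 0.0438) were higher in CD18CD11c cKO BMDCs and Angptl2 (-0.98, SE 0.21, adjusted p = 0.0189) lower, against 12.1% and 8.16% of all genes. Cd24a encodes a sialylated ligand of Siglec-G. Between the LPS-treated genotypes edgeR called none of the 12 ligands tested, without the block (0% of all genes) or with it (6.98% higher and 3.16% lower).

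The enzymes that make, attach and remove sialic acid were a list of 18 genes, 17 or 18 of which were tested. In CD18fl/fl BMDCs 3 of 17 rose with LPS without the block and none fell (2.06% and 1.83% of all genes). All 3 encode α2,3-sialyltransferases: St3gal5 (19.4 ± 5.41 to 69.3 ± 10.0 CPM, 1.84, SE 0.29, edgeR adjusted p = 0.0261), St3gal3 (1.43, SE 0.23, adjusted p = 0.0274) and St3gal1 (1.23, SE 0.21, adjusted p = 0.0320). Without the block only St6gal1, the α2,6-sialyltransferase, passed in CD18CD11c cKO BMDCs, falling from 21.5 ± 6.83 to 6.51 ± 0.610 CPM (-1.77, SE 0.31, edgeR adjusted p = 0.0339). With the block, St3gal1 (1.24, SE 0.19, adjusted p = 0.00641), St3gal5 (0.89, SE 0.19, adjusted p = 0.0197) and the polysialyltransferase St8sia4 (1.53, SE 0.17, adjusted p = 0.00282) rose there.
St6gal1 also fell in CD18fl/fl BMDCs with the block (-2.40, SE 0.37, edgeR adjusted p = 0.0144), as did St3gal4 (-1.44, SE 0.27, adjusted p = 0.0245 in CD18fl/fl and -1.70, SE 0.37, adjusted p = 0.0212 in CD18CD11c cKO) and Cmas (-0.90, SE 0.20, adjusted p = 0.0386 and -0.77, SE 0.19, adjusted p = 0.0304). With the block 4 of 17 rose and 3 fell in CD18fl/fl (6.33% and 6.43% of all genes), and 3 of 18 rose and 3 fell in CD18CD11c cKO BMDCs (10.2% and 9.93%). Between the genotypes, with the block, Nans was higher in unstimulated CD18CD11c cKO BMDCs (0.62, SE 0.13, adjusted p = 0.0182) and St3gal3 lower after LPS (-0.94, SE 0.17, adjusted p = 0.0190).

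The genes whose log2 CPM followed that of each receptor most closely over the 12 libraries were listed as a description. Cd200r1 was closest to Dok2 (r = 0.98), Pirb to Phc2 (r = 0.99), Lilrb4a to Grtp1 (r = 0.98) and Cd300a to Prxl2a (r = 0.96). Tyrobp was closest to Prim2 and Ebp (both r = 0.96), Lair1 to Tnfsf13 (r = 0.93) and Cd300lf to Vapb (r = 0.94), which was also second for Lilrb4a (r = 0.95). Siglec1 was closest to Htra1 (r = 0.91), Siglece to Tdrd9 (r = 0.89) and Siglecg to Cd48 (r = 0.83). These libraries share the LPS groups and the distance of replicate 3.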

How the data were processed

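Per the study's methods, the authors trimmed single-end reads of 59 bases from poly(A)-selected libraries amplified over 15 PCR cycles and used the default settings of CLC Genomics Workbench to map them to GRCm39 and count them. The labels name GRCm38, but the gene positions in the deposited tables match GRCm39. The authors deposited raw counts per gene without normalization, as total gene reads and unique gene reads, 1 table a library. Total gene reads were used.

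The members and gene lists were chosen with earlier results of these data known. Genes named beyond the 10 were, in each list, comparison and direction, up to 3 with the smallest adjusted p past the threshold, without and with the block, and the 3 most correlated with each member (the closest is given, others where shared). The choice of Gm49339, Rab37, Flt3, Itgax, Cpa3, Kit, H2-Ab1 and the Y-linked genes followed a look at their values. Genes passing edgeR's filter (minimum count 10) were tested by edgeR 4.0.16 (quasi-likelihood, TMM, Benjamini-Hochberg, threshold 0.05) in R 4.3.3 on the 6 libraries of a comparison, or 12 for the interaction. SE is the log2 fold change divided by the square root of F. Levels by replicate number were compared after adding 0.1 CPM. The length correction followed the trend of log counts along exon length, fitted for every library by lowess with span 0.3.

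Replicate numbers come from the labels. Deviations from the group means of same-numbered libraries correlated by 0.271 to 0.730 in every pair, so the numbers were taken as pairing them. Those of differently numbered libraries correlated by -0.600 to 0.355. For LPS in CD18fl/fl BMDCs the pair of replicates 2 (0.271) lay below the pair of unlike replicates 2 and 1 (0.299). The labels do not say whether libraries came from separate mice, so p-values measure the spread between these libraries. Between the genotypes the block pairs CD18CD11c cKO replicate 3, where reads of the Y-linked genes were almost absent, with a CD18fl/fl library that held them. The procedure was run on simulated counts in which large changes and a shift shared by same-numbered libraries were built in. Smaller changes and the pairing itself were not checked by it. Promoters are from RefSeq (GRCm38.p6) and coding sequences from GENCODE (GRCm39). Alternatives were DESeq2 1.42.0, RLE size factors, library size alone, no filter, unique reads, all 12 libraries, the block, the block with length, replicates 1 and 2 alone, summed reads and each library left out.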

Additional observations from a re-analysis of the deposited data

How the results depend on the processing

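Of 830 recomputed log2 fold changes of the 10 genes, 705 kept their direction and side of the threshold, 37 kept the direction and passed it, 8 kept the direction and no longer passed it, and 80 turned the sign. The cause was not tested. Between the unstimulated genotypes edgeR called 0 genes, 2606 with the replicate block, 1547 with block and length, 509 by DESeq2, 1381 in replicates 1 and 2 alone and 19 in 1 fit of all 12 libraries. Of the 10 genes 1 each was called with the block, with block and length, by DESeq2 and in replicates 1 and 2 alone. Genes tested in these 6 fits, in the same order, were 12876, 12876, 12876, 18793, 13068 and 13752. After LPS the counts were 0, 1262, 888, 153, 523 and 45, of 12441, 12441, 12441, 19049, 12390 and 13752 tested, with 1 gene without the filter. Of the 10 genes 2 were called with the block, 1 with block and length and 1 in replicates 1 and 2 alone. For LPS in CD18fl/fl BMDCs the counts were 496, 1627, 1802, 1795, 6140 and 1068, of 12744, 12744, 12744, 18927, 12924 and 13752 tested. They were 447 of 12744 by library size alone, 691 of 18927 without the filter and 500 of 12516 on unique reads. Of the 10 genes 1 was called, 3 with the block, with block and length and by DESeq2, 2 by library size alone, without the filter, on unique reads and in 1 fit of all libraries, and 6 in replicates 1 and 2 alone. For LPS in CD18CD11c cKO BMDCs the counts were 506, 2560, 2566, 1534, 2049 and 983, of 12687, 12687, 12687, 19186, 12872 and 13752 tested. They were 805 of 19186 without the filter and 482 of 12687 by library size alone. Of the 10 genes 1 was called, 4 with the block and with block and length, 3 by DESeq2 and in replicates 1 and 2 alone, and 2 by library size alone and in 1 fit of all libraries. DESeq2 called 1 gene for the interaction. Leaving out 1 library in turn gave 0 to 1 genes between the LPS-treated genotypes, 0 to 3268 for LPS in CD18fl/fl (0 to 4 of the 10) and 0 to 1033 for LPS in CD18CD11c cKO BMDCs (0 to 1 of the 10).

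Library size alone moved the median of all genes to -0.44, -0.37, -0.32 and -0.23 in the 4 comparisons. It turned the sign between the unstimulated genotypes for Lilrb4a (-0.091), Cd300lf (-0.20) and Cd200r1 (-0.021), after LPS for Siglecg (-0.14), Cd300lf (-0.21) and Cd200r1 (-0.046), and for LPS against no stimulation for Lilrb4a (-0.23 in CD18fl/fl, -0.035 in CD18CD11c cKO) and Siglecg (-0.22 in CD18fl/fl). The replicate block turned Siglecg (-0.034) and Cd300lf (-0.056) between the LPS-treated genotypes, Siglec1 (0.43) and Cd300lf (0.42) for LPS in CD18fl/fl and Cd300lf (0.013) in CD18CD11c cKO BMDCs. Block and length turned Lilrb4a (-0.031) between the unstimulated genotypes, Siglecg (-0.0014), Cd300lf (-0.14) and Tyrobp (-0.34) after LPS, and for LPS Siglec1 (0.60) and Cd300lf (0.39) in CD18fl/fl and Cd300lf (0.062) in CD18CD11c cKO BMDCs. Replicates 1 and 2 alone turned Siglecg (-0.21) and Cd200r1 (-0.044) between the LPS-treated genotypes, and for LPS Siglecg (-0.11) and Cd300lf (0.98) in CD18fl/fl and Cd300lf (0.48) in CD18CD11c cKO BMDCs. For the interaction they turned Lilrb4a (-0.23), Siglece (0.10) and Cd300lf (-0.45), and Cd300lf was -0.17 with the block, -0.16 with block and length, -0.044 by DESeq2 and by RLE and -0.0041 by library size.

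Without 1 library in turn the sign changed between the unstimulated genotypes for Lilrb4a (-0.54 to 1.33) and Cd300lf (-0.91 to 1.59), and after LPS for Siglecg (-0.20 to 0.44), Cd300a (-0.071 to 1.35) and Cd300lf (-0.31 to 0.43). For LPS it changed in CD18fl/fl for Lilrb4a (-0.26 to 1.17), Siglecg (-0.14 to 0.35), Siglec1 (-0.67 to 0.37) and Cd300lf (-0.59 to 1.32), and in CD18CD11c cKO BMDCs for Lilrb4a (-0.14 to 1.05) and Cd300lf (-0.58 to 0.90). For the interaction it changed for Pirb (-0.95 to 0.0042), Lilrb4a (-0.99 to 1.00), Siglece (-0.87 to 0.11), Cd300a (-0.42 to 1.01), Cd300lf (-1.53 to 1.08), Lair1 (-0.0052 to 0.62) and Cd200r1 (-0.56 to 0.049). Where 1 group was left with 2 libraries its spread was pooled with the other.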
